A study of Homo sapiens with 2 samples.

Results

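The subject here is the set of WSTF summits on chromosomes 7, 13 and 20 of SW620 cells. Every entry of the deposited summit list placed on one of these chromosomes was taken, whatever its score. This gave 366 of the 2697 summits of the list (13.6%): 155 on chromosome 7, 66 on chromosome 13 and 145 on chromosome 20. They were set against the 61 summits of chromosomes 4 and 18, of which 50 lay on chromosome 4 and 11 on chromosome 18. SW620 is an established human colorectal adenocarcinoma line grown from a lymph node metastasis. The series has 2 samples of this line, 1 titled as the IP and 1 without that word, and both carry the same colon and SW620 annotations. The single list names no sample, so it was treated as belonging to both, and no condition could be compared. Lowered WSTF is named in the series title and raised WSTF in its design text, so the WSTF level of the cells is not known here. The design text also names an anti-WSTF antibody, input DNA as control and biological replicates, but the list gives 1 value per summit and none per replicate.

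WSTF, encoded by BAZ1B in the Williams syndrome region of chromosome 7q, is a bromodomain protein that works with the ISWI ATPase SMARCA5 in nucleosome-sliding complexes. A summit is the base at which a ChIP-seq peak is highest. Colorectal tumours with unstable chromosomes often gain chromosomes 7, 13 and 20 and often lose chromosomes 4 and 18, with 18q the classic lost arm. This is background on the tumour type: the list holds neither copy number nor read coverage, so no value for either stands beside the shares that follow. Most human promoters of widely expressed genes lie in CpG islands, stretches rich in CG dinucleotides that are mostly free of DNA methylation.

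The strongest summits that fell inside a listed promoter window show the kind of sequence the summits lay in. For each of the arms 7p, 7q, 13q, 20p and 20q, the window with the highest-scoring such summit is printed, followed by those of 4q and 18q, the arms with the lowest shares among those compared. Each is the RefSeq window of GRCh38.p14 from 250 bases before the gene start to 50 bases after it, 5′ to 3′ on the strand of the gene, and the capitals mark the summit base with up to 10 bases on either side.
CCM2: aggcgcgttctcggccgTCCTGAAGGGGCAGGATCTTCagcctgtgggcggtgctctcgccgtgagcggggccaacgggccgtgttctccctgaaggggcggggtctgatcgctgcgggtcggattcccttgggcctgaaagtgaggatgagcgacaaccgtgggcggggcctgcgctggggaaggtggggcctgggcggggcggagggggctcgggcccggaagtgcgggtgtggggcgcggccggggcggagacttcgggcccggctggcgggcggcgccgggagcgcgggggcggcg
HTR5A: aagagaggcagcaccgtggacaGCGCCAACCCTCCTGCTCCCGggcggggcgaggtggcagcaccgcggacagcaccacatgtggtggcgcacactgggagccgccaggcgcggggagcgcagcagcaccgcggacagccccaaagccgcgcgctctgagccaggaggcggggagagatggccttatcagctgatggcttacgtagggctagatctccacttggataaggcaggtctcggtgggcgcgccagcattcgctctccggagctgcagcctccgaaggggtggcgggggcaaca
DCUN1D2: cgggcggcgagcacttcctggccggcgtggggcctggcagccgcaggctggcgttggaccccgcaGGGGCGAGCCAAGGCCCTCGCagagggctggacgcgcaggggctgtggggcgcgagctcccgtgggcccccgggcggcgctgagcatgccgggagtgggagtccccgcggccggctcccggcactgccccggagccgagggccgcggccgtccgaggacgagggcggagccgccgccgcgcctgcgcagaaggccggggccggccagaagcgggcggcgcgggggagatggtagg
PCNA: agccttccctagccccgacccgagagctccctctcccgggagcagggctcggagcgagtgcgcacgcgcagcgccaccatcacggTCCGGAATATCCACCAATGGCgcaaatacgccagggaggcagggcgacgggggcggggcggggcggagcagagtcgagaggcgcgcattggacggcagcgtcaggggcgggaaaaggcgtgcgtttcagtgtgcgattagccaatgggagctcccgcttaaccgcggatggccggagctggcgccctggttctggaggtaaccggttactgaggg
PRELID3B: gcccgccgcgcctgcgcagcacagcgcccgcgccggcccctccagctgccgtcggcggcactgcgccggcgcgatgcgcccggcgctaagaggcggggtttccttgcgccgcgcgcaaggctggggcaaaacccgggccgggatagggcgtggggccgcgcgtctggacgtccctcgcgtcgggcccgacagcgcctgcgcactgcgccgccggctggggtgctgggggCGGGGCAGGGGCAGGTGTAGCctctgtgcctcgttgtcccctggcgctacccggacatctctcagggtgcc
ING2: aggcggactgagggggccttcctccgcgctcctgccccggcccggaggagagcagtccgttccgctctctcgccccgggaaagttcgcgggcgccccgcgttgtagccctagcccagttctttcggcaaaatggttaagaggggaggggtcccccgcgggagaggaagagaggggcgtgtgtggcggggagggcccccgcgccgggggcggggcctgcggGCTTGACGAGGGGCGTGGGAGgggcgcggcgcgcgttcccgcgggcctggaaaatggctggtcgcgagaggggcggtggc
ABHD3: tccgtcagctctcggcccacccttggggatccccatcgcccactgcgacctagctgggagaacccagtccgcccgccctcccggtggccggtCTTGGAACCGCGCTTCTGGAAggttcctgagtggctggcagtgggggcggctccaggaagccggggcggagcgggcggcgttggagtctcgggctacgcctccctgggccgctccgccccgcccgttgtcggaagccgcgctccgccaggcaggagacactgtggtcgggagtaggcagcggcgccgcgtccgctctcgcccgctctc
The windows are chr7:44999951-45000250 on the plus strand (CCM2, a scaffold protein of blood vessel integrity), chr7:155070074-155070373 on the plus strand (HTR5A, a serotonin receptor), chr13:113490662-113490961 on the minus strand (DCUN1D2, a factor in cullin neddylation), chr20:5126573-5126872 on the minus strand (PCNA, the replication clamp), chr20:59042737-59043036 on the minus strand (PRELID3B, a mitochondrial lipid transfer protein), chr4:183505848-183506147 on the plus strand (ING2, a reader of methylated histone H3) and chr18:21704725-21705024 on the minus strand (ABHD3, a phospholipase). The 5 windows of the often gained arms held between 68.0% (PCNA) and 80.7% (DCUN1D2) G and C, against 74.0% in the ING2 window and 73.0% in the ABHD3 window. They held 26 (HTR5A) to 43 (PRELID3B) CG dinucleotides, against 36 for ING2 and 34 for ABHD3. The summit lay 223 bases before the start of CCM2, 218 before HTR5A, 175 before DCUN1D2, 155 before PCNA, 11 before PRELID3B, 20 before ING2 and 148 before ABHD3. For CCM2, DCUN1D2 and ING2 this is an inner start: by the outer ends of the gene, the summit lay 232 bp inside CCM2, 677 bp inside DCUN1D2 and 1020 bp inside ING2. The letters GGGCGG, the core of the GC box bound by SP and KLF factors, occurred on one strand or the other in all 7 printed windows. They are common: 56.3% of all promoter windows held them. Of windows with a summit, 75.3% did on chromosomes 7, 13 and 20 and 85.1% on the others.

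Protein-coding genes on chromosomes 7, 13 and 20 carried an end summit more often than those on chromosomes 4 and 18. A gene was counted when a summit lay within 1 kb of either of its outer ends, which held for 11.6% of all 19974 protein-coding genes of chromosomes 1 to 22 and X. On chromosomes 7, 13 and 20 it held for 296 of 1813 genes (16.3%, exact 95% interval 14.7 to 18.1), against 54 of 1040 genes on chromosomes 4 and 18 (5.19%, 3.92 to 6.72). Chromosome 20 reached 23.8%, chromosome 13 16% and chromosome 7 12.2%, against 5.71% on chromosome 4 and 3.70% on chromosome 18. The ratio of the pooled shares was 3.14, with a counting interval of 2.38 to 4.16. All chromosomes other than 7, 13 and 20 together gave 11.2% (10.7 to 11.6). The intervals treat genes as independent and cover counting error only. No test was made of any difference between chromosomes or arms, because there is 1 list and its genes and summits are not replicates.

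Chromosome 20 stood high on both arms, while chromosomes 7, 4 and 18 were uneven between theirs. On 20p, 47 of 180 genes had an end summit (26.1%, 19.9 to 33.2), and on 20q 81 of 357 (22.7%, 18.4 to 27.4). On 13q the count was 54 of 336 (16.1%, 12.3 to 20.4), and the 2 protein-coding genes of the short arm 13p had none. On 7p it was 49 of 302 (16.2%, 12.3 to 20.9), and on 7q 65 of 636 (10.2%, 7.98 to 12.8), an interval that holds the 11.6% of all genes. The ratio of 7p to 7q was 1.59 (1.12 to 2.24), and that of 20p to 20q was 1.15 (0.843 to 1.57), an interval that holds equality.

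Among the often lost arms, the short arms had higher shares than the long arms. On 4p, 27 of 249 genes had an end summit (10.8%, 7.27 to 15.4), against 17 of 521 on 4q (3.26%, 1.91 to 5.17). On 18p, 8 of 70 genes had one (11.4%, 5.07 to 21.3), against 2 of 200 on 18q (1.00%, 0.121 to 3.57). The 2 genes on 18q share 1 summit, and the 18q share rests on it alone. The 4p share was 3.32 times that of 4q (1.85 to 5.98), and the 18p share 11.4 times that of 18q (2.49 to 52.5). Without the 5 Mb stretch that held most of its genes with a summit, 4p came to 7.65% (13 of 170 genes) and 18q to 0 of 179 genes. The intervals of 4p and 18p held the 11.6% of all genes, and those of 4q and 18q lay below it. With the 500 highest-scoring summits alone, where 2.19% of all genes had one, 7p came to 8 of 302 genes (2.65%) and 7q to 14 of 636, against 1 of 249 on 4p (0.402%), 3 of 70 on 18p (4.29%) and none on 4q and 18q.

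**Figure D1:**
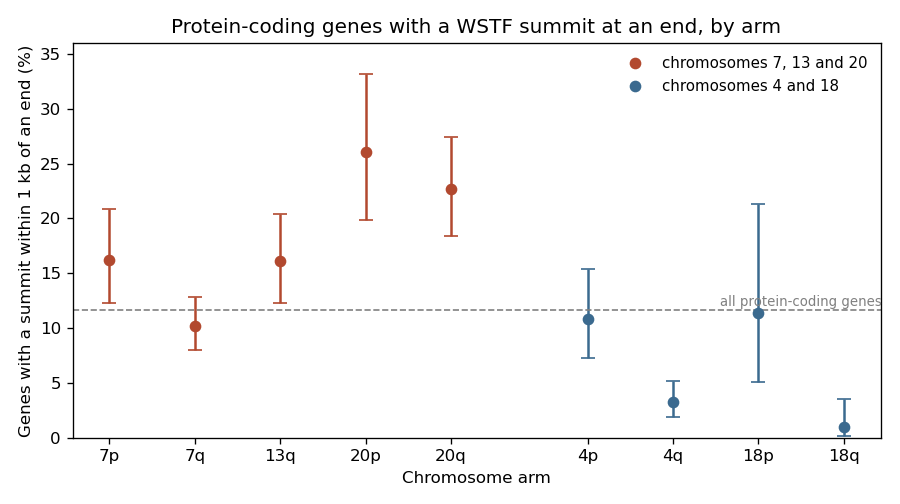
Percentage of protein-coding genes whose end lay within 1 kb of a summit (y axis) on each arm (x axis), with exact 95% intervals and the share of all protein-coding genes (11.6%) as a dashed line. The arms 20p (26.1%) and 20q (22.7%) lie above all others shown, and 4q (3.26%) and 18q (1.00%) below them.

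Ranked among the 41 chromosome arms with at least 50 protein-coding genes, 20p was the second highest and 20q the third highest, after 16q (26.7%). Next came 17p (22.1%), close to 20q (22.7%), then 11q (18.8%) and 12p (18.4%). The 7p arm ranked 7 and 13q ranked 8, while 7q ranked 26. At the low end, 18q came last, with Xq (2.12%) next to it and 4q after that. The number of protein-coding genes per Mb was 6.43 on 20p, 9.83 on 20q, 5.03 on 7p, 6.41 on 7q and 3.49 on 13q, against 4.98 on 4p, 3.72 on 4q, 3.89 on 18p and 3.21 on 18q, and its part in the shares was not tested. Counted per length, the number of summits was 1.96 per Mb on 20p, 2.48 on 20q, 1.10 on 7p, 0.897 on 7q and 0.685 on 13q, against 0.580 on 4p, 0.15 on 4q, 0.556 on 18p and 0.0161 on 18q. The whole list gave 0.890 per Mb.

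The arms 18q and 4q held the longest runs of genes with no end summit. On 18q the only summit of the arm, with a score of 4.30, lay at position 21704922 (hg38). It was 6 bp inside MIB1, a ubiquitin ligase of Notch signalling, and 148 bp outside ABHD3. Beyond this summit, the remaining 58.5 Mb of annotated sequence and 194 protein-coding genes had none. On 4q, 2 neighbouring summits lay 89.1 Mb apart, at positions 94451841 (PDLIM5, a cytoskeletal adaptor) and 183504129 (ING2), with 278 protein-coding genes lying wholly between them. PDLIM5, with an end summit of its own at the first position, is 1 of the 278. Measured as the longest run of consecutive protein-coding genes without an end summit, 4q (277 genes) ranked 1 and 18q (194 genes) ranked 2 of the 41 arms, ahead of Xq (136 genes). The longest runs on the often gained arms were 79 genes on 7q, 52 on 13q, 34 on 20q, 28 on 7p and 27 on 20p. Some long distances occurred there as well: 2 neighbouring summits on 7q lay 14.9 Mb apart with 46 protein-coding genes between them, and 2 on 13q lay 11.9 Mb apart with 6 genes between.

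In fixed 5 Mb stretches, at least 1 gene had an end summit in every stretch of 7p, 20p and 20q, while 4 of 20 stretches on 7q and 8 of 20 on 13q had none, against 2 of 10 on 4p, 0 of 3 on 18p, 21 of 29 on 4q and 12 of 13 on 18q. Of the stretches with at least 5 protein-coding genes, the share was above 11.6% in 6 of 6 on 20p, 6 of 7 on 20q, 8 of 12 on 7p, 7 of 20 on 7q and 7 of 16 on 13q, against 4 of 9 on 4p, 4 of 26 on 4q, 1 of 3 on 18p and 0 of 11 on 18q. The stretch with most such genes held 40.4% of them on 20p, 27.2% on 20q, 25.9% on 13q, 16.3% on 7p and 13.8% on 7q, against 51.9% on 4p, 37.5% on 18p, 29.4% on 4q and all on 18q. On 13q the stretch from 110 to 115 Mb, next to the end of the chromosome, held 14 of its 54 genes with a summit, at 35.0% of the 40 genes there. They included ANKRD10, the flippase gene ATP11A, the lysosomal membrane gene LAMP1 (6.04) and NAXD (5.80), which encodes an enzyme of NAD(P)HX repair. On 7q the stretch from 155 to 160 Mb had summits at 9 of 19 genes (47.4%), among them HTR5A, RNF32, LMBR1 (7.33), MNX1 (6.78), a homeobox gene of motor neurons, and NOM1 (5.01). On 20q the stretch from 60 to 65 Mb had them at 22 of 65 genes (33.8%), including LSM14B, YTHDF1 (7.66), a reader of methylated adenosine in RNA, GMEB2 (5.21), the kinase genes PTK6 and SRMS, which share 1 summit (5.13), and TPD52L2 (5.02). On 20p the first 5 Mb had them at 19 of 81 genes (23.5%), including PRNP, the prion protein gene (8.22), the antiviral signalling gene MAVS (5.32) and CSNK2A1, a casein kinase 2 subunit gene (5.31). On 7p, 3 stretches held 8 such genes each, at 17% of the 47 genes of the first 5 Mb, 20% of the 40 genes of the next and 22.2% of the 36 genes from 40 to 45 Mb. Those of the first included DNAAF5, COX19 (5.14), ZFAND2A (4.54), PSMG3 (3.87) and MAD1L1 (3.44), a spindle checkpoint gene. On 4p the first 5 Mb held 14 of its 27 genes with a summit, with ADD1 (5.27), PCGF3 (4.85), the pair ZFYVE28 and CFAP99 (4.54) and NSD2 (4.51) after the uncharacterised LOC124900163 (5.67).

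**Figure D2:**
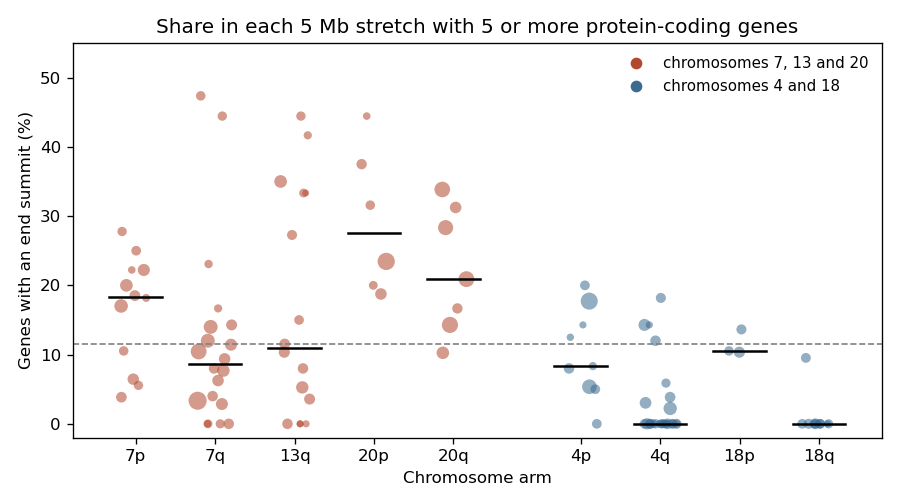
Share of genes with an end summit (y axis, %) in each 5 Mb stretch with at least 5 protein-coding genes, by arm (x axis). Point size grows with the number of genes, bars are medians over stretches and the dashed line is 11.6%; the median is 27.5% on 20p and 20.9% on 20q, and 0 on 4q and 18q.

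Genes with CpG-rich promoters had a summit more often than others on chromosomes 7, 13 and 20. The promoter table matched 1482 of the 1813 genes on chromosomes 7, 13 and 20, 891 of the 1040 on chromosomes 4 and 18, and 15813 of 19974 in all. A gene was called CpG-rich when a window of it held at least 55% G and C and at least 0.65 of the CG dinucleotides its C and G content would give. CpG-rich genes made up 64.1% of matched genes on chromosomes 7, 13 and 20 and 66.2% on chromosomes 4 and 18. Over all chromosomes, 17.5% of CpG-rich genes and 3.52% of other genes had an end summit. On chromosomes 7, 13 and 20 it was 226 of 950 CpG-rich genes (23.8%, 21.1 to 26.6), against 43 of 590 on chromosomes 4 and 18 (7.29%, 5.32 to 9.69), a ratio of 3.26 (2.4 to 4.45). Among genes that were not CpG-rich, the counts were 23 of 532 (4.32%, 2.76 to 6.42) and 6 of 301 (1.99%, 0.735 to 4.29), with intervals that overlap.

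Within CpG-rich genes, 20p and 20q were again highest and 4q and 18q lowest of the arms compared: 36 of 82 on 20p had an end summit (43.9%, 33.0 to 55.3) and 61 of 166 on 20q (36.7%, 29.4 to 44.6). The share was 21.6% on 13q, 19% on 7p and 16% on 7q, against 15.9% on 4p, 12% on 18p, 4.64% on 4q and 1.64% on 18q. Relative to the share over all chromosomes in the same class, 7p was at 1.08 among CpG-rich genes and 1.40 among all genes, and 18p at 0.684 and 0.984. The values for CpG-rich genes rest on genes matched to the promoter table, 240 of 302 on 7p and 62 of 70 on 18p. Those for all genes include unmatched ones, so the values of an arm differ in more than CpG content. The 7p interval (13.4 to 25.6) held the 17.5% of all CpG-rich genes. The 18q value rests on 2 of 122 genes, which share 1 summit.

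**Figure D3:**
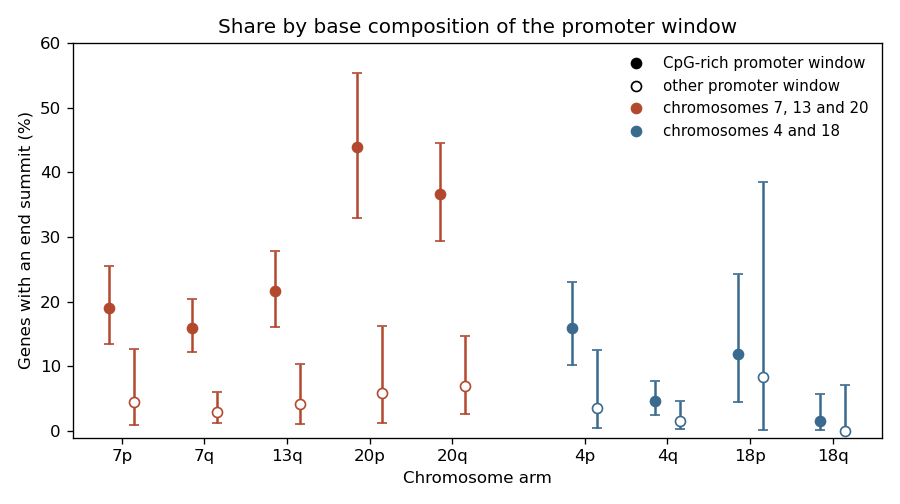
Share of genes with an end summit (y axis, %) for CpG-rich (filled) and other (open) promoter windows on each arm (x axis), with exact 95% intervals. Filled points reach 43.9% on 20p and 36.7% on 20q and lie at 4.64% on 4q and 1.64% on 18q.

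End summits on chromosomes 7, 13 and 20 lay mostly at the 5′ ends of genes, as on the other chromosomes. Among the 1299 protein-coding genes there that span 5 kb or more and have a known strand, 226 had a summit within 1 kb of the 5′ end alone, 6 of the 3′ end alone and 2 of both. On chromosomes 4 and 18 the counts were 45, 0 and 0 of 812 genes, and on the remaining chromosomes 1431, 49 and 18 of 12185. Set against the listed start sites, 250 of the 366 summits (68.3%) lay within 1 kb of one, with a median position 18 bp before the start and quartiles at 134 bp before and 134 bp inside the gene. On chromosomes 4 and 18, 51 of 61 summits (83.6%) did so, with a median of 40 bp before the start. Over the rest of the list the share was also 68.3%, with a median 13.5 bp before the start. The start table is not complete, so these shares are not comparable between chromosomes that it covers to different degrees.

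**Figure D4:**
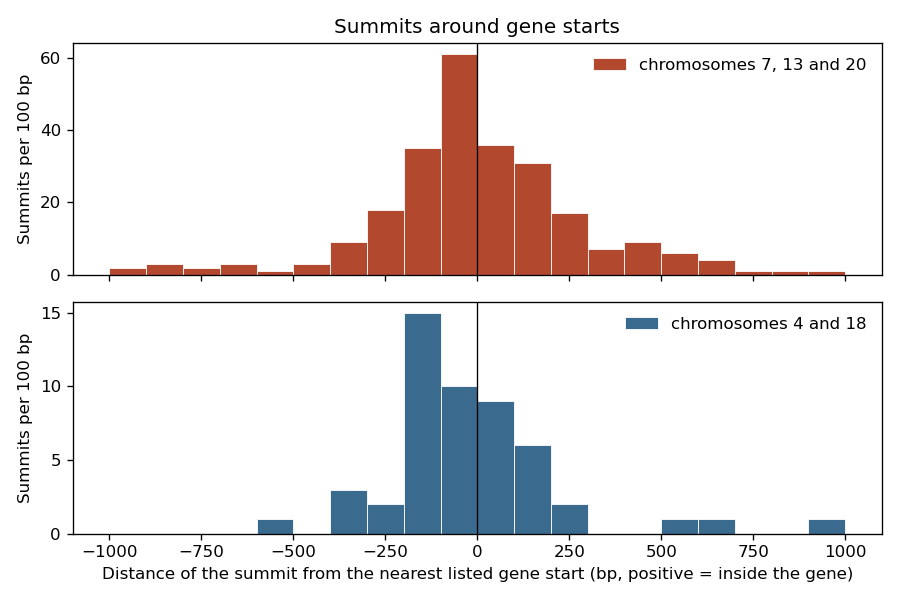
Number of summits in 100 bp bins (y axis) by distance from the nearest listed start of a protein-coding gene (x axis, bp; positive is inside the gene), for the 250 summits of chromosomes 7, 13 and 20 (top) and the 51 of chromosomes 4 and 18 (bottom) within 1 kb of a start. Both pile up at the start, with medians of 18 and 40 bp before it.

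By class, 264 of the 366 summits (72.1%, 67.2 to 76.7) lay within 1 kb of an end of a protein-coding gene, against 46 of 61 (75.4%, 62.7 to 85.5) on chromosomes 4 and 18 and 73.3% over the rest of the list. A further 36 (9.84%) lay at the end of a non-coding gene alone, 48 (13.1%) in the body of a protein-coding gene, 4 in that of a non-coding gene and 14 (3.83%) between genes. Over the rest of the list 6.99% lay at the end of a non-coding gene alone, 13.9% in the body of a protein-coding gene and 4.59% between genes. On chromosomes 7, 13 and 20, summits at protein-coding ends had a median score of 4.15 and those at non-coding ends alone 3.99. Those in bodies of protein-coding genes had 3.16 and those between genes 2.48. Over the rest of the list these medians were 3.72, 3.74, 3.62 and 3.72. On chromosome 13 alone, summits in bodies of protein-coding genes had the higher median, 5.37 against 4.57 at protein-coding ends. On chromosomes 7, 13 and 20, 102 summits lay away from outer ends of protein-coding genes. Of these, 32 (31.4%) lay within 1 kb of an inner start site, such as those of ZNF217, MCF2L, FNDC3A and KLF5. On chromosomes 4 and 18 it was 10 of 15 (66.7%). Among the 264 end summits, 41 touched more than 1 gene: 40 lay within 1 kb of the ends of 2 genes and 1 of more. This is 15.5% of end summits, against 17.4% on chromosomes 4 and 18 and 20.8% over the rest of the list. Another summit lay within 10 kb of 46 of the 366 (12.6%), against 4 of 61 (6.56%) on chromosomes 4 and 18 and 10.3% over the rest of the list. BAZ1B itself, on 7q, had 2 summits inside its start, 463 bp from it with a score of 3.02 and 28 bp from it with 1.73.

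On chromosome 20 the highest scores belonged to a pair of 20q summits far above the others. The score is the authors' own, taken here to be −log10 q from peak calling, and it ranks summits within the list only. The summit of XKR7, an XK-related membrane protein gene, lay 418 bp inside the gene, at position 31968569. It scored 44.2 and ranked 4 in the whole list. The summit of RAB22A, an endosomal GTPase gene, scored 19.2 (rank 7), 125 bp inside the gene. The next were a summit shared by DDRGK1, of the UFM1 conjugation machinery, and the nucleotide-cleaning enzyme gene ITPA (9.67), and one shared by PCNA and the lipid synthesis gene CDS2 (9.61). GPCPD1, a phosphodiesterase gene of choline metabolism, followed with 9.37, its summit 4 bp outside the gene. Then came DNAAF9 (9.0), PRELID3B (8.43) and LSM14B (8.23), an RNA-binding protein gene. Away from outer ends, the highest were inside ZNF217, a transcription factor gene (8.23), 840 bp before an inner start, and at LINC01730 (6.99).

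On chromosome 7 the highest-scoring summits were spread over both arms. HTR5A led with 17.8 (rank 9), 218 bp before the gene start. A summit 307 bp before the splicing factor gene LUC7L2, which also touches FMC1, a mitochondrial assembly factor gene, scored 14.9. On 7p, a summit between PSPH, the phosphoserine phosphatase of serine synthesis, and the chaperonin gene CCT6A scored 12.1. Then came RNF32 (9.95), DNAAF5, a dynein arm assembly factor gene (8.65), FKBP9, an endoplasmic reticulum foldase gene (8.11), NUB1, a NEDD8 regulator gene (7.94), and UPP1, uridine phosphorylase (7.37). The highest away from protein-coding ends were at the lncRNAs LINC03015 (6.83) and LINC01003 (6.63).

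On chromosome 13 a single summit stood apart, shared by DCUN1D2 and the putative transporter gene SLC9D1 near the end of the long arm, with a score of 16.9 (rank 10). ANKRD10 followed with 8.01 and CLYBL, a mitochondrial lyase gene, with 7.11. A summit shared by COMMD6 and the deubiquitinase gene UCHL3 scored 7.05. NDFIP2, an adaptor of NEDD4 ligases (6.56), GTF3A, the factor that drives 5S rRNA transcription (6.37), ATP11A (6.20) and TMTC4, a mannosyltransferase gene (6.19), completed the 8. Away from protein-coding ends, a summit inside GRK1, a photoreceptor kinase gene, scored 7.48, and one inside MCF2L, 55 bp before an inner start, scored 6.88. The highest scores of the often lost arms were 5.67 on 4p (LOC124900163), 5.27 on 4q (ING2), 6.70 on 18p (LPIN2, a phosphatidate phosphatase gene) and 4.30 on 18q.

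Median scores lay close together on most arms and were higher on 13q, with quartile ranges that overlap on all arms with more than 1 summit. The median was 4.69 on 13q (quartiles 3.54 and 5.76), 4.06 on 20q (3.09 and 5.20), 3.85 on 20p (3.18 and 4.98), 3.60 on 7p (2.44 and 4.81) and 3.59 on 7q (2.76 and 4.93), against 3.72 on 4p, 3.72 on 4q and 3.85 on 18p. The only summit of 18q scored 4.3, and the median of the whole list was 3.72 (2.76 and 5.04). A score of 5 or more was reached by 45.5% of summits on chromosome 13, 27.6% on chromosome 20 and 22.6% on chromosome 7, against 10.0% on chromosome 4 and 27.3% (3 of 11) on chromosome 18, with 25.8% over the list. Scores of 10 or more occurred at 6 of the 366 summits on chromosomes 7, 13 and 20, beside 42 of the 2697 of the list. None of the 61 on chromosomes 4 and 18 reached 10, too few summits to tell from the rate of the list.

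**Figure D5:**
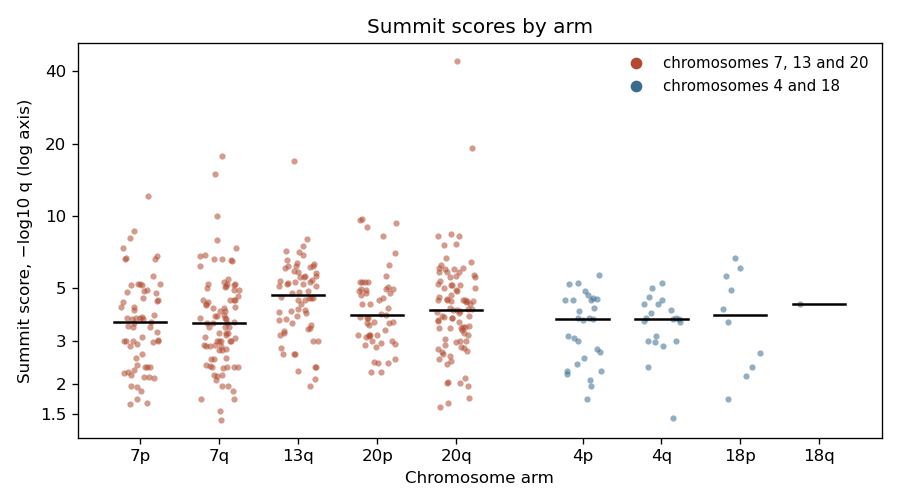
Score of every summit (y axis, −log10 q, log axis) by arm (x axis), with bars at the medians. Medians run from 3.59 on 7q to 4.69 on 13q, against 3.72 on 4p and 4q, 3.85 on 18p and 4.3 on 18q (1 summit). The highest point is XKR7 on 20q at 44.2.

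Candidate genes of the gained and lost chromosomes were counted from lists that were chosen with earlier results known. The lists are short, some members share 1 summit, and no list share was tested against that of its arm or chromosome. Of 29 candidate genes of 20q gain, 10 had an end summit (34.5%), beside 22.7% of all 20q genes. They were the coactivator NCOA3 (6.01), the signalling phospholipase PLCG1 (5.62), the fucosyltransferase POFUT1 and the zinc finger gene PLAGL2, which share 1 summit (5.35), the survival gene BCL2L1 (4.86), the mitotic ubiquitin-conjugating enzyme UBE2C (4.67), the proteasome ubiquitin receptor ADRM1 (4.44), ADNP (3.76), the cell cycle factor E2F1 (3.44) and LAMA5, a laminin chain, whose highest summit (3.83) lay inside the gene. ZNF217 had its summit inside the gene. Of 20 chromosome 13 genes, 7 had an end summit (35.0%), beside 16.1% of 13q genes: GTF3A (6.37), PCID2 and CUL4A, which share 1 summit (5.29), the Mediator kinase CDK8 (5.20), the DNA ligase LIG4 (3.83), the insulin receptor substrate IRS2 (2.66) and the tumour suppressor RB1 (2.34). KLF5 (6.14) and KLF12 (2.36) had a summit inside the gene near an inner start.

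Of 25 chromosome 7 genes, 5 had an end summit, beside 12.2% of all genes on the chromosome. They were the kinase BRAF (6.16), the acetyltransferase scaffold TRRAP (4.12), the receptor MET (3.62), 104 bp before the gene start, CDK5 (3.44) and the phosphatase PTPN12 (2.36). EGFR (2.87) and CUL1 (2.52) had one inside the gene, that of EGFR 25314 bp from an end. Of 23 genes of chromosomes 4 and 18, 2 had an end summit (8.70%), beside 5.19% of all genes on these chromosomes: the 4p genes NSD2 (4.51), a histone methyltransferase, and FGFR3 (4.44), a growth factor receptor. None of the 9 listed genes of 18q, the 2 of 18p and the 10 of 4q had one. Among them were the WSTF partner gene SMARCA5 and FBXW7 and LEF1 on 4q, and SMAD2, SMAD4, DCC and BCL2 on 18q. Of all genes, 1.00% had one on 18q, 11.4% on 18p and 3.26% on 4q, shares at which lists this short would often hold none.

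Families of genes, taken by the start of their symbols, were small on these chromosomes. No family share was tested against that of all genes. Of all genes, 16.3% had an end summit on chromosomes 7, 13 and 20, 5.19% on chromosomes 4 and 18 and 11.5% elsewhere. The counts of 0 on chromosomes 4 and 18 come from 23 or fewer genes each, too few to tell from 5.19%. Zinc finger genes (ZNF) had an end summit at 12 of 45 members (26.7%), against 0 of 17 on chromosomes 4 and 18 and 14.3% elsewhere. Of the 12, ZNF425 and ZNF398, which share 1 summit (4.37), and ZNF282 (2.87), ZNF783 (5.33), ZNF746 (3.11) and ZNF862 (3.13) lie near each other on 7q, and ZNFX1 on 20q, whose product is an antiviral RNA helicase, had the highest score (7.55). Solute carriers (SLC) had one at 5 of 32 (15.6%, beside 16.3% of all genes on chromosomes 7, 13 and 20), against 0 of 23 on chromosomes 4 and 18 and 11.4% elsewhere. TMEM genes had one at 2 of 24, against 0 of 14 and 11.8% elsewhere. Of the DNAJ cochaperone genes 3 of 7 had one (DNAJB9, DNAJB6 and DNAJC3), against 0 of 1 on chromosomes 4 and 18 and 16.2% elsewhere. Of symbols that start with RAB 3 of 5 had one, the GTPase RAB22A with RABGEF1 and RAB5IF, which are not GTPases, against 0 of 5 and 16.7% elsewhere. Of PSM 2 of 5 had one, the proteasome subunit PSMA7 and the assembly chaperone PSMG3, against 0 of 2 and 14% elsewhere. Of UBE2 2 of 5 had one, UBE2D4 and UBE2C, against 0 of 2 and 20.7% elsewhere. HOX genes had one at 1 of 12 members, HOXA13, against 3.57% elsewhere, and the mitochondrial ribosomal genes MRPL and MRPS at 1 of 7, MRPS17, against 1 of 2 and 17.6% elsewhere. The ribosomal protein genes RPL and RPS (2), the helicases DDX and DHX (3) and CHMP (1) had none on chromosomes 7, 13 and 20, against 0 of 5, 1 of 3 and 0 of 1 on chromosomes 4 and 18 and 12.9%, 27.7% and 0% elsewhere.

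Short motifs in the promoter windows were counted on both strands as plain letter matches. Of 146 windows of chromosomes 7, 13 and 20 that held a summit, 110 contained GGGCGG (75.3%), beside 54.0% of all 2064 windows there and 56.3% of all windows of the table. On the other chromosomes 85.1% of 966 windows with a summit contained it. GCATGCGC, part of the NRF1 site, was in 10.3% of windows with a summit and 4.12% of all windows on chromosomes 7, 13 and 20. CACGTG, the E-box of MYC and USF factors, was in 14.4% and 8.43%, and CCGGAAG, an ETS site, in 19.9% and 13.9%. CCAAT was in 36.3% and 33.4%, TGACGTCA, the CRE, in 4.11% and 2.33%, and TATAAA in 2.74% and 9.01%. The CRE and TATAAA values of windows with a summit rest on 6 and 4 windows. On the other chromosomes, GCATGCGC was in 10.4% of windows with a summit, CACGTG in 13.9% and CCGGAAG in 24.4%. In those same windows CCAAT was in 34.2%, TGACGTCA in 4.76% and TATAAA in 2.69%. Windows that overlap or belong to 1 gene were counted separately, and CpG content was not taken into account.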

How the data were processed

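ChIP-seq against WSTF was made in SW620 cells. Per the submitters' processing notes, Trimmomatic 0.39, Bowtie2 2.4.4, MACS2 2.2.7.1 and build hg38 were used; the design text names input DNA as control. The sources used here do not say whether replicates were pooled. The deposited −log10 score of each summit was read as −log10 of the q-value, since its lowest value, 1.31, lies just above 1.30 (q of 0.05). The list holds no reads, so the depth is unknown.

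Genes came from the RefSeq table of GRCh38.p14, whose chromosome coordinates are those of hg38; start sites and 300-base promoter windows came from RefSeq too. Arms were split at the centromere in whole Mb (60 on chromosome 7, 18 on 13, 28 on 20, 50 on 4 and 18 on 18), and a gene belongs to the arm of its midpoint. No protein-coding gene spans a split. Shares carry exact Clopper-Pearson 95% intervals and ratios log-scale (Katz) intervals; both cover counting error only. No p-value was computed. The assignment of summits to genes was tested on simulated data with 200 planted summits. Python 3.11.15, pandas 2.3.3 and scipy 1.17.1 were used.

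The members, gene lists and the comparison of arms were chosen with earlier results of these data known. Named genes are the 8 highest-scoring summits at protein-coding ends and the 2 highest elsewhere on each of chromosomes 7, 13 and 20, the highest on each arm of chromosomes 4 and 18, BAZ1B, the 5 highest in the 5 Mb stretch of each arm with most such genes, and all list members with a summit. CCM2, PDLIM5, FNDC3A, genes of the symbol families and list members without a summit are named after their values were seen. The ranking of all arms, the runs without a summit and the split by CpG content were added after the data were seen.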

Additional observations from a re-analysis of the deposited data

How the results depend on the processing

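Of 43 alternative values for the summary results, 29 stayed within the counting interval or, for a count, within 1.5 times the main value, and none reversed. The share on chromosomes 7, 13 and 20 (16.3%) was 14.2% with a 500 bp window, 18.6% with 5 kb, 19.2% when summits inside genes counted, 14.3% without the 5 Mb stretch of each arm with most such genes, 10.3% with summits at or above the median score, 3.64% with the 500 highest-scoring summits and 23.8% among CpG-rich genes, an alternative chosen after seeing the data. The share on chromosomes 4 and 18 (5.19%) was 3.08% with summits at or above the median score, 0.385% with the 500 highest, 3.40% without those stretches and 7.29% among CpG-rich genes. Fewer summits or genes enter several of these by construction. Their ratio (3.14) was 9.46 with the 500 highest-scoring summits and 4.22 without those stretches, lay between 2.85 (gene starts alone) and 3.33 in the others, and was above 1 in each. Of the 5 arms 7p, 7q, 13q, 20p and 20q, 4 were above the share of all genes in each alternative but the 500 highest-scoring summits. There 5 were, though 7q, at 2.2%, was level with the 2.19% of all genes. With those 500, 4p fell to 0.184 of the share of all genes, against 0.933 with all summits, and 18p came to 1.96, against 0.984. The median score was above that of the list on 3 of these arms, and on 5 when end summits alone were used; the cause was not tested. No paired analysis was possible because there is 1 list with no value per replicate. With the depth unknown, absence of a summit does not show absence of binding.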
